A study of Mus musculus with 7 samples.

Results

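The Indian hedgehog and PTHrP loop is described here through 9 genes, taken by name from a table of 52459 gene names: the ligand genes Ihh and Pthlh, the receptor genes Pth1r and Ptch1, the signal transducer gene Smo, the transcription factor genes Gli1, Gli2 and Gli3, and the inhibitor gene Hhip. All 9 are in the table and all 9 had enough counts to be tested, among 13367 tested genes. Expression was measured by bulk RNA sequencing of total RNA from primary mouse articular chondrocytes of the femoral head, cultured in medium with fetal bovine serum. The cells received BMP2 at 100 ng/ml (3 libraries, replicates 1, 2 and 3), TGFβ1 at 5 ng/ml (2 libraries, replicates 1 and 3) or vehicle (2 libraries, replicates 1 and 2), each for 24 h. The labels give no strain, age or sex, and do not say whether replicates are separate animals or cultures, so p-values cover the spread between these libraries alone, and that spread may be technical.

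In the growth plate of developing bone, prehypertrophic chondrocytes secrete Indian hedgehog. It binds the receptor PTCH1, which then stops restraining SMO, and GLI transcription factors change the expression of their targets; PTCH1, GLI1 and HHIP are products of such targets and report pathway activity in many tissues. Indian hedgehog also raises PTHrP, encoded by Pthlh, at the articular end of the growth plate, and PTHrP acts through its receptor PTH1R to hold chondrocytes back from hypertrophy and so from making more Indian hedgehog.

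The stretches before RefSeq starts of Ihh, Pthlh and Ptch1 are shown first because these genes carry the main contrasts: Ihh and Ptch1 moved together under both ligands, and Pthlh rose where they fell. Each is read 5′ to 3′ on the gene's strand (the minus strand for all 3) from RefSeq's GRCm38.p6 promoter table and ends at the RefSeq start site, except for Pthlh, where the stretch stops at the first base that GENCODE M21 places in an exon. The Ptch1 stretch lies within the annotated span of the gene, before a RefSeq start inside it. The positions are chr1:74951673-74951922 for Ihh, chr6:147264184-147264263 for Pthlh and chr13:63565736-63565985 for Ptch1, and capitals mark the letters of a searched motif.
Ihh: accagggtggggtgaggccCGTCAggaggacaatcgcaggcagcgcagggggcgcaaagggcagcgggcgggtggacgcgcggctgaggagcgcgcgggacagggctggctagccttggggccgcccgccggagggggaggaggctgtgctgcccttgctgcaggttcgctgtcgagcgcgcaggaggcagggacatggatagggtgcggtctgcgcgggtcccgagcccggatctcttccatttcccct
Pthlh: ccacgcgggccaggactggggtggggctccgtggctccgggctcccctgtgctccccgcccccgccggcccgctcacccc
Ptch1: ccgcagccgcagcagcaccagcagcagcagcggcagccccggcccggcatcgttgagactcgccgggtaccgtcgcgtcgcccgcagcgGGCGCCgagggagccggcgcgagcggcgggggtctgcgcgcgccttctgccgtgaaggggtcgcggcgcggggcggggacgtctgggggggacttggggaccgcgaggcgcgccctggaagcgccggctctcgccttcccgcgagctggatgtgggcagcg
The motifs searched, on both strands of the 250 bases before each RefSeq start, were GACCACCCA (GLI), GTCTAGAC (a SMAD palindrome), GGCGCC (a GC-rich SMAD motif), TGTGGT (RUNX), TGACGTCA (the cyclic AMP response element, CRE) and its half-site TGACG, which lies within the CRE. The table has entries for 8 of the 9 genes, with 10 start sites, and not for Gli1. The half-site was found at Ihh (in capitals), at Pth1r and, as part of the full CRE, at Hhip; 17.8% of all 32851 windows hold it on either strand. GGCGCC is in the Ptch1 stretch and in the window of Pthlh, in the exonic bases not printed, and in 9.59% of all windows. The full CRE was found at Hhip alone among the 10 windows, 75 bases before its start, and in 1.55% of all windows. The RUNX letters were found at Gli3 alone, on the other strand, and in 14.0% of all windows. GACCACCCA and the SMAD palindrome were in none of the 10 windows, and in 0.225% and 0.167% of all windows. A match is a description of letters, and no match says only that these letters are not in this window.

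The libraries held 6747997 to 10686885 counts with BMP2, 16271793 and 18047765 with TGFβ1, and 6885056 and 7387051 with vehicle. Levels are given as CPM, counts scaled to a common library size, and, to compare genes with each other, as RPKM, which is CPM per kilobase of the deposited gene length. Rose and fell are used for genes that passed an edgeR adjusted p of 0.05, and every fold change is a log2 value with its standard error (SE). Genes named Rpl or Rps with a number held 0.991% to 1.31% of counts with BMP2, 6.07% and 6.11% with TGFβ1, and 0.974% and 1.03% with vehicle. The fold change of TGFβ1 against vehicle followed transcript length: its median was 2.75 in 1133 genes of up to 1000 nt, 0.03 in 2911 genes above 2000 and up to 3000 nt, and −0.57 in 1011 genes above 7000 nt, while for BMP2 against vehicle these medians were all from −0.08 to 0.03. Values of TGFβ1 comparisons for the loop genes and the later gene lists are therefore also given after a per-library offset (called the length offset). It removes trends with transcript length and with GC content, and its values are given where it ends a call or moves the value. The cell-type markers are given without it. BMP2 replicate 1 stood apart from its group: chi-square per gene, near 1 for counting error alone, was 12.9 and 16.6 against the other BMP2 libraries, which differed from each other by 1.8. The value was 36 between the TGFβ1 libraries, which have more counts, and 4.39 between the vehicle libraries.

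The 8 chondrocyte markers examined (Col2a1, Acan, Sox9, Col9a1, Col11a1, Matn1, Comp and Hapln1) were detected in all 7 libraries, with a summed level of 46700 to 52700 CPM with BMP2, 34300 to 40200 with TGFβ1 and 54200 to 54300 with vehicle. Most of this sum is Col2a1, which did not pass with either ligand. With TGFβ1 6 of the 8 fell, by 0.88 (Acan) to 2.99 (Matn1), and Comp also did not pass; with BMP2 Matn1 fell by 1.54 and Acan rose by 0.64. Cd3e of T cells, Cdh5 of endothelium and Myod1 of muscle had 0 counts in every library, while the other markers of their lists were counted in some libraries. The muscle markers summed to at most 1.2 CPM, with BMP2, and Acta1 among them had up to 14 counts. The adipocyte markers and the neural and epithelial markers summed to at most 0.916 and 1.45 CPM, both with TGFβ1. Plin1 and Epcam in these lists had up to 11 and 18 counts. The 5 leukocyte markers summed to 13.2 to 15.4 CPM with BMP2, 18.9 to 28.2 with TGFβ1 and 17.9 to 27.2 with vehicle. Among them Cd68, a macrophage marker, rose with TGFβ1 by 1.58. Csf1r, at −0.89, and Lyz2, at −0.19, had the opposite sign with TGFβ1 and did not pass. Pecam1, an endothelial marker, had 1.12 to 1.59 CPM with BMP2, 0.294 and 0.458 CPM with TGFβ1 and 0 counts with vehicle, and was called higher under both ligands on at most 16 counts per library. The 5 markers of the superficial zone of cartilage, a neighbouring chondrocyte population, summed to 275 to 311 CPM with BMP2, 6530 to 6800 with TGFβ1 and 615 to 674 with vehicle, and the 6 osteoblast markers to 723 to 796, 1410 to 1640 and 711 to 740 CPM in the same groups. Prg4 makes up most of the superficial zone sum: with TGFβ1 Prg4, Cilp and Clu rose, while Vit and Abi3bp fell by 0.95 and 0.71. Col1a1 makes up most of the osteoblast sum and rose with TGFβ1 by 1.15, whereas Sp7, a transcription factor gene of osteoblasts, fell by 0.80 with TGFβ1 and rose by 1.31 with BMP2. The part of these shifts in the results for the loop was not tested. All marker values with TGFβ1 in this paragraph are without the length offset, and the part of the length trend in them was not tested. In bulk RNA, fewer cells of a type and less RNA per cell cannot be told apart.

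The comparison with vehicle asks what each ligand does to the genes of the loop in articular chondrocytes. Per length, Pth1r was the most abundant of the 9 genes in every group, at 99.2 ± 23.3 RPKM with BMP2 (SD, n = 3), 51.5 ± 0.222 with TGFβ1 (n = 2) and 49.1 ± 6.03 with vehicle (n = 2). The place of Ihh in the order of the 9 genes was the second with BMP2, the ninth with TGFβ1 and the seventh with vehicle. With BMP2 the order was Pth1r, Ihh, Smo, Ptch1, Gli3, Gli2, Gli1, Pthlh and Hhip; the ranges of Ihh and Smo overlapped (11.7 to 19.4 and 10.5 to 16 RPKM), as did those of Gli2, Gli1 and Pthlh, which all averaged close to 1 RPKM. With TGFβ1 it was Pth1r, Smo, Pthlh, Gli3, Ptch1, Gli2, Gli1, Hhip and Ihh, where Pthlh, at 2.36 and 4.45 RPKM, spanned both Gli3 and Ptch1. With vehicle the order was Pth1r, Smo, Gli3, Ptch1, Gli2, Pthlh, Ihh, Gli1 and Hhip, and Ihh (0.746 and 1.10 RPKM) overlapped Gli1 (0.589 and 0.862 RPKM). Levels per length within the TGFβ1 libraries carry the length difference described above.

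**Figure D1:**
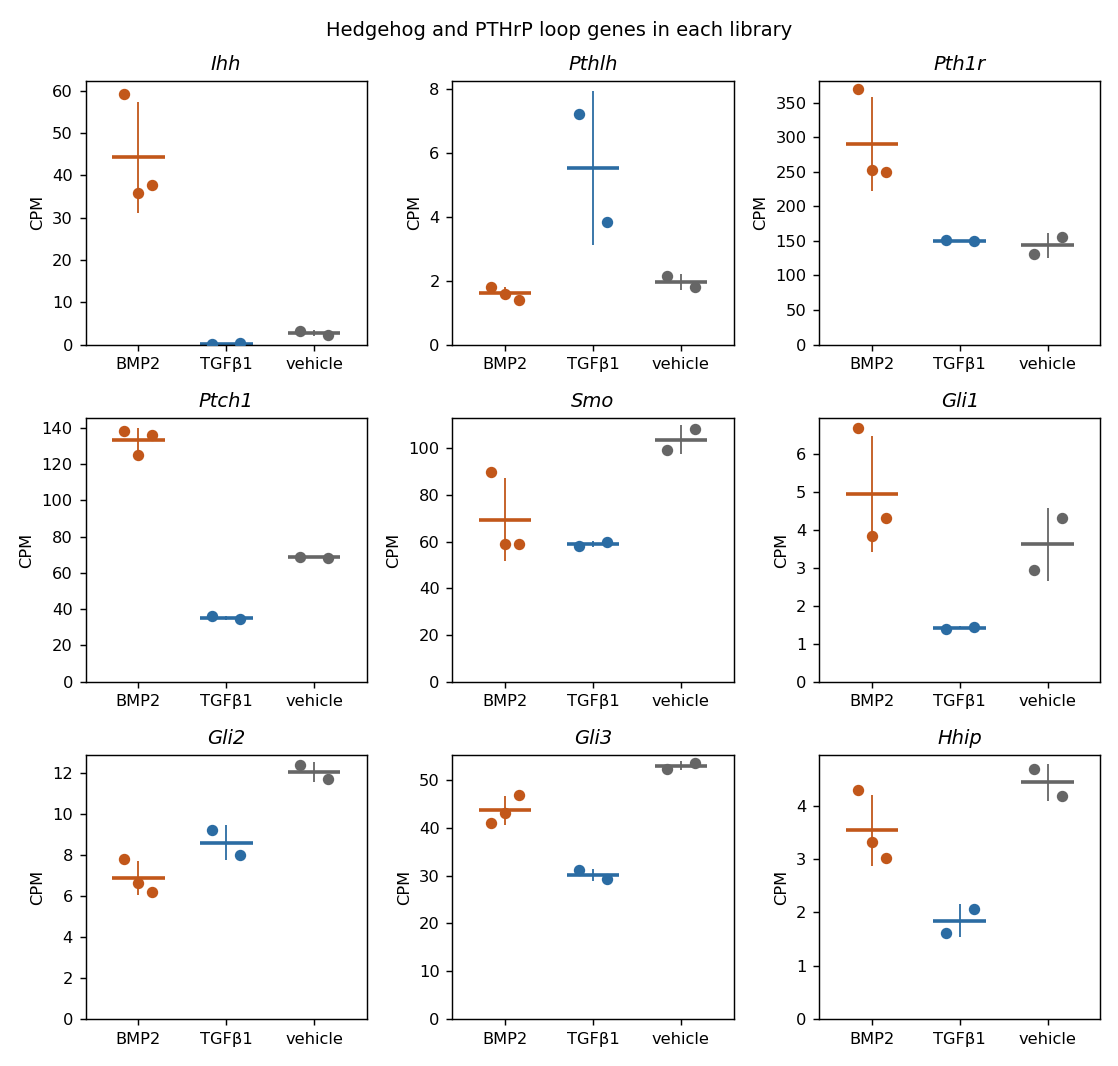
Level of each of the 9 genes in CPM (vertical axes, linear from 0) in the 3 BMP2, 2 TGFβ1 and 2 vehicle libraries; points are libraries, horizontal bars group means and vertical lines 1 SD. Ihh is high in all 3 BMP2 libraries (35.7 to 59.3 CPM), while Pthlh is highest in the TGFβ1 libraries (3.82 and 7.21 CPM).

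Ihh, the Indian hedgehog gene (ENSMUSG00000006538, chromosome 1, 74945315 to 74951672, minus strand, GRCm38), had 59.3, 35.7 and 37.8 CPM in the BMP2 libraries, 0.147 and 0.305 CPM in the TGFβ1 libraries, and 3.34 and 2.27 CPM in the vehicle libraries. All BMP2 libraries lay above both vehicle libraries and both TGFβ1 libraries below them, with no overlap between any pair of groups. Ihh rose with BMP2 by 3.99 (SE 0.30, edgeR adjusted p = 4.09e-05) and fell with TGFβ1 by 3.56 (SE 0.64, edgeR adjusted p = 0.000834). The direct comparison of BMP2 against TGFβ1 gave 7.55 (SE 0.41, edgeR adjusted p = 8.41e-08). The TGFβ1 value rests on 2 and 4 counts, beside 25 and 19 counts with vehicle in libraries of smaller total count; the ratio of pooled CPM, TGFβ1 over vehicle, was 0.0809, with an exact 95% interval of 0.0282 to 0.191 that covers counting error only. Without BMP2 replicate 1, the highest library, the rise with BMP2 was 3.72.

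Pthlh, the PTHrP gene (ENSMUSG00000048776, chromosome 6, 147252101 to 147264183), went the other way with TGFβ1. It had 1.80, 1.59 and 1.41 CPM with BMP2, 7.21 and 3.82 CPM with TGFβ1, and 2.14 and 1.79 CPM with vehicle. Both TGFβ1 libraries lay above the other 5, although they differed from each other, and the BMP2 range overlapped that of vehicle. Pthlh rose with TGFβ1 by 1.49 (SE 0.36, edgeR adjusted p = 0.00537). Its principal transcript is 1603 nt long, and with the length offset the rise was 1.17 (edgeR adjusted p = 0.0142). The call was lost without TGFβ1 replicate 1, at 0.96 (edgeR adjusted p = 0.0607). With BMP2 the change was −0.28 with a 95% interval of −1.19 to 0.62 (edgeR adjusted p = 0.719), on 12 to 21 counts per library.

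Because both ligand genes were counted in the same library, their ratio does not depend on how libraries are scaled. The log2 ratio of Ihh to Pthlh counts was 5.01, 4.43 and 4.70 with BMP2, −5.30 and −3.49 with TGFβ1, and 0.63 and 0.33 with vehicle. Per kilobase of the deposited gene lengths the vehicle values were −0.28 and −0.58, while the other groups kept their sign. Each group occupied its own range. The difference in the mean log2 ratio was 4.23 for BMP2 minus vehicle and −4.87 for TGFβ1 minus vehicle, against a pooled SD within groups of 0.68. No test was made of these differences, and the length trend of the TGFβ1 libraries is not removed from them.

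**Figure D2:**
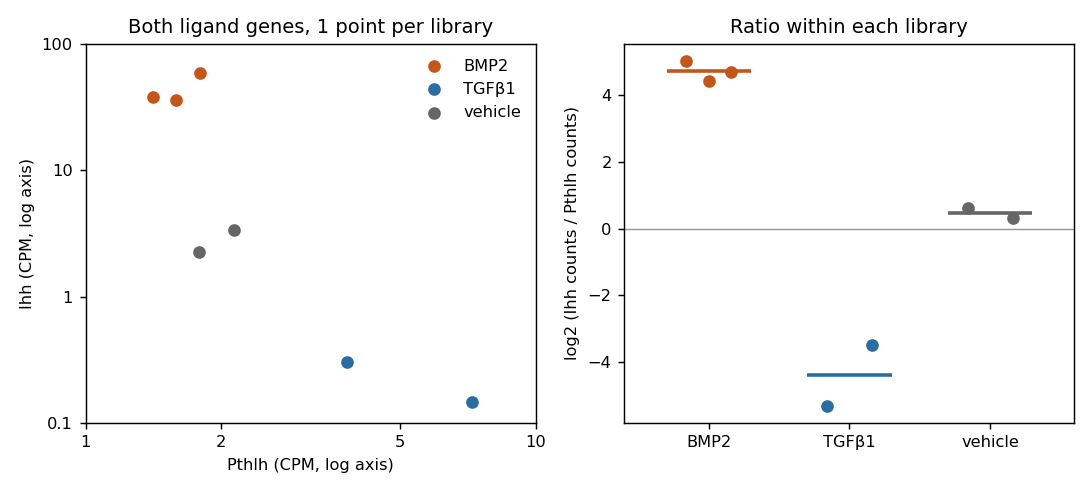
Left, Ihh against Pthlh in CPM on log axes, 1 point per library; right, log2 of the ratio of Ihh to Pthlh counts within each library, with group means as bars. The BMP2 libraries lie at 4.43 to 5.01, the TGFβ1 libraries at −5.30 and −3.49, and the vehicle libraries at 0.63 and 0.33. These ratios are not divided by gene length.

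Pth1r, which encodes the PTHrP receptor (ENSMUSG00000032492, chromosome 9, 110722085 to 110747145), rose with BMP2. Its level was 369, 252 and 250 CPM with BMP2, 151 and 150 CPM with TGFβ1, and 131 and 156 CPM with vehicle. The BMP2 libraries lay above all others, and the TGFβ1 libraries lay within the vehicle range. The rise with BMP2 was 1.02 (SE 0.18, edgeR adjusted p = 0.00521), and 0.81 without BMP2 replicate 1; without vehicle replicate 1 it was 0.90 and did not pass (edgeR adjusted p = 0.0756). With TGFβ1 the fold change was 0.07, with a 95% interval of −0.36 to 0.50. Myl3, on the opposite strand, covers 3.2% of the exon bases of Pth1r, and whether the counting used strand is unknown here.

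Ptch1, which encodes the Hedgehog receptor and is itself a pathway target (ENSMUSG00000021466, chromosome 13, 63508328 to 63573598), followed the direction of Ihh under both ligands. It had 138, 125 and 136 CPM with BMP2, 36 and 34.4 CPM with TGFβ1, and 69.0 and 68.4 CPM with vehicle, a narrow spread within each group and no overlap between groups. Ptch1 rose with BMP2 by 0.95 (SE 0.11, edgeR adjusted p = 0.000336) and fell with TGFβ1 by 0.96 (SE 0.12, edgeR adjusted p = 6.08e-05). Its principal transcript has 7725 nt, and with the length offset the fall with TGFβ1 was −0.52 (edgeR adjusted p = 0.0038). BMP2 against TGFβ1 gave 1.92 (SE 0.11), the smallest SE among the 9 genes in that comparison together with Gli3. Over the 13 alternatives, which include the length offset, this value was 1.59 to 1.97.

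Smo, which encodes the signal transducer that PTCH1 restrains (ENSMUSG00000001761, chromosome 6, 29735503 to 29761365), was highest with vehicle. It stood at 89.8, 59.0 and 59.1 CPM with BMP2, 58.1 and 59.9 CPM with TGFβ1, and 99.1 and 108 CPM with vehicle. Both vehicle libraries were above all others, and BMP2 replicate 1 stood apart from its group. Smo fell with TGFβ1 by 0.81 (SE 0.19, edgeR adjusted p = 0.00453). The BMP2 value of −0.58 did not pass (SE 0.17, edgeR adjusted p = 0.0588), and passed without BMP2 replicate 1, at −0.81 (edgeR adjusted p = 0.000853), with DESeq2, at −0.56, without the filter on low counts, at −0.56, and with the length offset, at −0.53. The ratio of Ptch1 to Smo counts, free of library scaling, was 1.54, 2.12 and 2.30 with BMP2, 0.619 and 0.575 with TGFβ1, and 0.696 and 0.632 with vehicle. It is not free of the length trend of the TGFβ1 libraries. With TGFβ1 Ptch1 fell by 0.96 and Smo by 0.81, but with the length offset the values were −0.52 and −0.93. The order of the 2 falls thus changes, and the lower ratio with TGFβ1 than with vehicle depends on length.

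Gli1, the GLI factor gene that is also a target of the pathway (ENSMUSG00000025407, chromosome 10, 127329882 to 127341974), was scarce. It had 6.69, 3.84 and 4.33 CPM with BMP2, 1.40 and 1.45 CPM with TGFβ1, and 2.94 and 4.31 CPM with vehicle. The TGFβ1 libraries were below the rest, and the BMP2 range overlapped that of vehicle. Gli1 fell with TGFβ1 by 1.35 (SE 0.38, edgeR adjusted p = 0.0108), a call lost without vehicle replicate 2, at −1.04 (edgeR adjusted p = 0.106). With BMP2 its fold change was 0.46, with a 95% interval of −0.21 to 1.14 (edgeR adjusted p = 0.385), and 0.17 without BMP2 replicate 1. A rise as large as that of Ptch1 lies inside this interval. BMP2 against TGFβ1 gave 1.81 (SE 0.32, edgeR adjusted p = 0.000658). Of its exon bases 6.5% overlap genes on the other strand.

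Gli2, which encodes the main activating GLI factor (ENSMUSG00000048402, chromosome 1, 118834132 to 119053619), was lower under both ligands. It had 7.81, 6.63 and 6.21 CPM with BMP2, 9.20 and 8.02 CPM with TGFβ1, and 12.4 and 11.7 CPM with vehicle, so that both vehicle libraries exceeded the other 5. The fall with BMP2 was 0.80 (SE 0.17, edgeR adjusted p = 0.0122). It did not pass without BMP2 replicate 3 (−0.73), vehicle replicate 1 (−0.76) or vehicle replicate 2 (−0.85). The fall with TGFβ1 was 0.49 (SE 0.18, edgeR adjusted p = 0.038) and did not pass with DESeq2 (−0.49), with the length offset (−0.36) or without BMP2 replicate 2, either TGFβ1 library or either vehicle library (−0.59 to −0.39).

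Gli3, which encodes the main repressing GLI factor (ENSMUSG00000021318, chromosome 13, 15463235 to 15730026), was the most abundant GLI gene per length in every group. Its level was 41.0, 43.2 and 46.9 CPM with BMP2, 31.1 and 29.3 CPM with TGFβ1, and 52.4 and 53.7 CPM with vehicle. The 3 groups did not overlap. Gli3 fell with TGFβ1 by 0.81 (SE 0.12, edgeR adjusted p = 0.000239), but with the length offset, its principal transcript being 8170 nt long, the value was −0.28 and did not pass (edgeR adjusted p = 0.0763). The BMP2 value of −0.28 (SE 0.11) did not pass (edgeR adjusted p = 0.136). BMP2 against TGFβ1 gave 0.53, and a value of 0.11 after the length offset that did not pass.

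Hhip, which encodes a membrane protein that binds and sequesters Hedgehog ligands (ENSMUSG00000064325, chromosome 8, 79965851 to 80058006), had the lowest RPKM with BMP2 and with vehicle. It had 4.29, 3.31 and 3.01 CPM with BMP2, 1.62 and 2.06 CPM with TGFβ1, and 4.68 and 4.19 CPM with vehicle. The TGFβ1 libraries were below all others, and BMP2 replicate 1 alone of the BMP2 libraries reached the vehicle range. Hhip fell with TGFβ1 by 1.26 (SE 0.29, edgeR adjusted p = 0.00413). Its principal transcript, at 9074 nt, is the longest of the 9, and with the length offset the value was −0.66 and did not pass (edgeR adjusted p = 0.0994). With BMP2 the fold change was −0.31 with a 95% interval of −0.88 to 0.26 (edgeR adjusted p = 0.502), an interval that does not reach the 0.95 by which Ptch1 rose. BMP2 against TGFβ1 gave 0.95 (SE 0.27); the call was lost after the length offset (0.41) and without TGFβ1 replicate 1 (0.78).

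**Figure D3:**
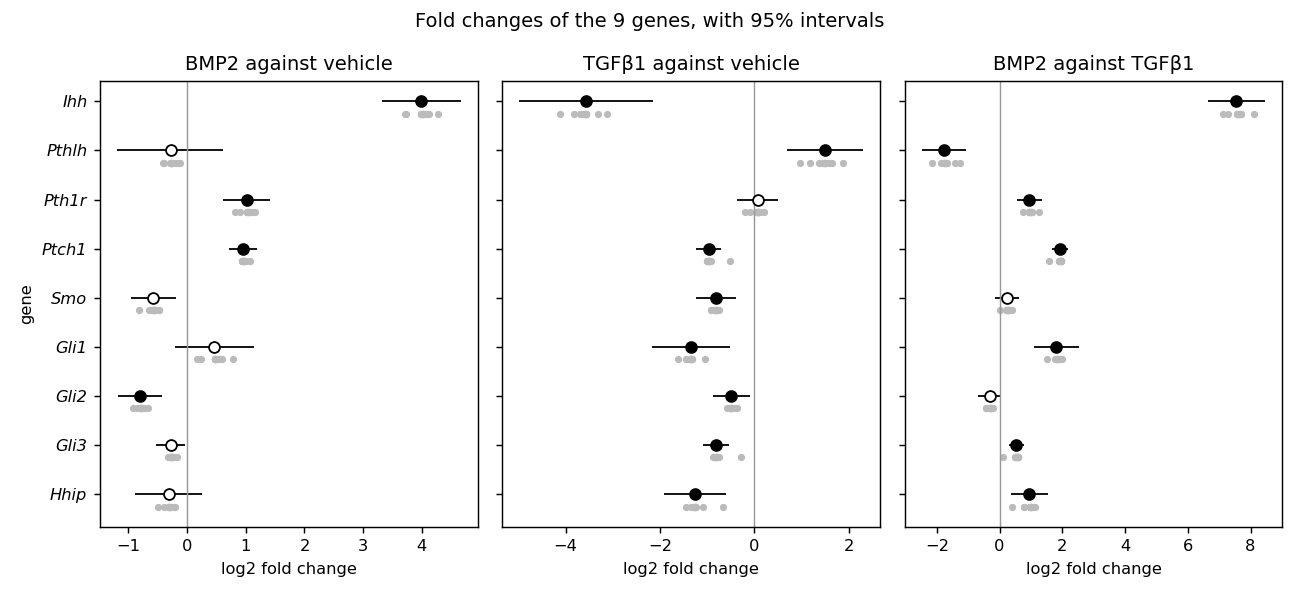
Log2 fold changes (horizontal axes, different scale in each panel) of the 9 genes for BMP2 against vehicle, TGFβ1 against vehicle and BMP2 against TGFβ1. Large points are the reported values with 95% intervals, filled where the adjusted p was under 0.05, and small grey points are the 13 alternatives; Ihh stands at 3.99, −3.56 and 7.55, and no alternative moves it across 0.

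Counted over the 9 genes, BMP2 raised Ihh, Pth1r and Ptch1 and lowered Gli2, so that 3 rose, 1 fell and 5 did not pass, beside 5.33% of all tested genes that rose and 6.15% that fell (11.5% called). TGFβ1 raised 1 gene, Pthlh, and lowered 7, with Pth1r not past the threshold, beside 30.4% and 25.8% of all tested genes (56.2% called). With the length offset 1 rose and 4 fell with TGFβ1: Ihh, Ptch1, Smo and Gli1 fell, and Gli2, Gli3 and Hhip did not pass. Over all 13367 tested genes, 3398 rose and 3146 fell with TGFβ1 under this offset (6544 called). In BMP2 against TGFβ1, 6 genes were higher with BMP2 (Ihh, Pth1r, Ptch1, Gli1, Gli3 and Hhip), Pthlh was lower, and Smo and Gli2 did not pass, beside 28.1% and 33.3% of all tested genes (61.4% called). With the length offset Gli3 (0.11) and Hhip (0.41) no longer passed in this comparison. Smo ranged from 0.00 to 0.40 over the 13 alternatives and newly passed in 1 of them. The median fold change of the 9 genes was −0.28 for BMP2 and −0.81 for TGFβ1 against vehicle, and 0.95 for BMP2 against TGFβ1, beside 0.00, −0.02 and −0.02 over all tested genes. Both comparisons with vehicle share the same 2 vehicle libraries. The group ranges did not overlap for 6 of the 9 genes in BMP2 against vehicle and for 8 in each of the other comparisons. This count was not made over all tested genes, so it is not a result about the loop.

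Of 27 further Hedgehog genes 23 could be tested. The other mammalian Hedgehog ligand genes were close to uncounted: Shh had at most 1 count and Dhh at most 3 counts in any library. With BMP2 5 of the 23 rose and 1 fell (26.1% called, beside 11.5% of all tested genes; median −0.10). Scube1, of a family of secreted proteins some of whose members help release Hedgehog ligands, had 60.8, 48.1 and 53.3 CPM with BMP2 and 15.6 and 17.0 CPM with vehicle, a rise of 1.73 (SE 0.14, edgeR adjusted p = 5.11e-05), and its relative Scube3 rose by 1.13. Gpc3, a cell-surface glypican that binds Hedgehog ligands, rose by 1.21 with BMP2. The gene that fell was Gas1, a Hedgehog co-receptor: 48.0, 60.3 and 58.3 CPM with BMP2 and 147 and 141 CPM with vehicle, a change of −1.38 (SE 0.13, edgeR adjusted p = 0.000138). The annotated gene Gm48488 covers 19.9% of the exon bases of Gas1.

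With TGFβ1 4 of the 23 Hedgehog genes rose and 10 fell (median −0.29), a share of 60.9% near the 56.2% of all tested genes, and 4 rose and 6 fell with the length offset. Hhat, which encodes the enzyme that attaches palmitate to Hedgehog ligands, had 31.4 and 31.5 CPM with TGFβ1 and 8.96 and 8.61 CPM with vehicle, a rise of 1.84 (SE 0.17, edgeR adjusted p = 8.04e-06), and 1.73 with the length offset. Boc, a co-receptor gene, fell by 1.06 and Gpc3 by 1.97. Gsk3b, a kinase gene of GLI processing, fell by 0.80, but its value with the length offset was −0.24 and did not pass. In BMP2 against TGFβ1, Hhat was lower with BMP2, at −2.47, as was Gas1, at −1.78, while Gpc3 and Scube1 were higher, at 3.18 and 2.02.

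Among 34 genes upstream or downstream of the PTHrP receptor, 30 could be tested, and Pth, the parathyroid hormone gene, had 0 counts in every library. With BMP2 3 rose and 5 fell (26.7% called, beside 11.5% of all tested genes; median −0.05). The phosphodiesterase gene Pde3a fell by 0.88 and the adenylyl cyclase gene Adcy9 by 1.13, and Ramp2, a receptor-activity-modifying protein gene whose exons are overlapped by Vps25 over 33.4% of their bases, rose by 1.02. With TGFβ1 2 rose and 12 fell (46.7% called, beside 56.2% of all tested genes; median −0.29), and 3 rose and 8 fell with the length offset. Nkx3-2, a transcription factor gene that PTHrP maintains in immature chondrocytes, had 1.54 and 2.6 CPM with TGFβ1 and 8.56 and 8.13 CPM with vehicle, a change of −2.01 (SE 0.26, edgeR adjusted p = 8.88e-05) and of −1.64 with the length offset. It thus fell in the libraries in which Pthlh rose. Prkar2b, a regulatory subunit gene of protein kinase A, was lower under both ligands, at −1.06 with BMP2 and −2.05 with TGFβ1.

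Hedgehog signalling in vertebrates runs through the primary cilium. Of 24 cilium genes 0 rose and 0 fell with BMP2 (beside 11.5% of all tested genes called; median −0.17), with 0 in either direction with the length offset too; edgeR gave 3 genes an unadjusted p under 0.05, and DESeq2 called 0. The smallest p was that of Arl13b, a ciliary GTPase gene, at 0.39 (edgeR unadjusted p = 0.0104, adjusted p = 0.0736). With TGFβ1 6 rose and 6 fell (50% called, beside 56.2% of all tested genes; median −0.29), and 6 and 4 with the length offset. Cep164, a gene of the basal body, rose by 2.56, and Ift88 and Ift52, genes of transport within the cilium, by 1.33 and 1.13. B9d1, of the transition zone, rose by 4.38; the length offset left a rise of 1.54. Among 11 tested genes reported as Hedgehog targets in other tissues, 1 rose and 3 fell with BMP2 (36.4% called, beside 11.5% of all tested genes): Cdk6 rose by 0.92, and Ccnd1, Bcl2 and Foxd1 fell by 0.74, 0.76 and 0.64. Another annotated gene covers 23.4% of the exon bases of Ccnd1. With TGFβ1 2 rose and 5 fell (63.6% called, beside 56.2% of all tested genes), and 1 and 4 with the length offset. Bcl2 fell by 1.49, and its value after the offset was −0.99; Foxd1 fell by 0.98.

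Of 10 genes of prehypertrophic and hypertrophic chondrocytes, 5 rose and 3 fell with BMP2 (80% called, beside 11.5% of all tested genes, with a median of 0.55). Like the other lists, this list was chosen with earlier results of these data known, so its share is a description and not an independent test. Panx3, a channel gene of prehypertrophic cells, had 272 CPM with BMP2, 7.62 CPM with TGFβ1 and 82.9 CPM with vehicle on average, a rise of 1.71 with BMP2 and a fall of 3.44 with TGFβ1. Alpl, the alkaline phosphatase gene, rose by 1.87 with BMP2 and fell by 1.42 with TGFβ1. The members of this list did not move as a block, since the matrix genes Mmp13 and Spp1 fell with BMP2 by 1.89 and 1.53. With TGFβ1 1 rose and 4 fell (50% called, beside 56.2% of all tested genes; median −0.30). The length offset also leaves 1 and 4, but not the same genes. Runx2, at −0.69, no longer passed (−0.29, edgeR adjusted p = 0.0652). Vegfa, at 0.25 and not past the threshold, came to −2.85 (edgeR adjusted p = 5.91e-08), with an offset taken from a principal transcript of 654 nt.

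**Figure D4:**
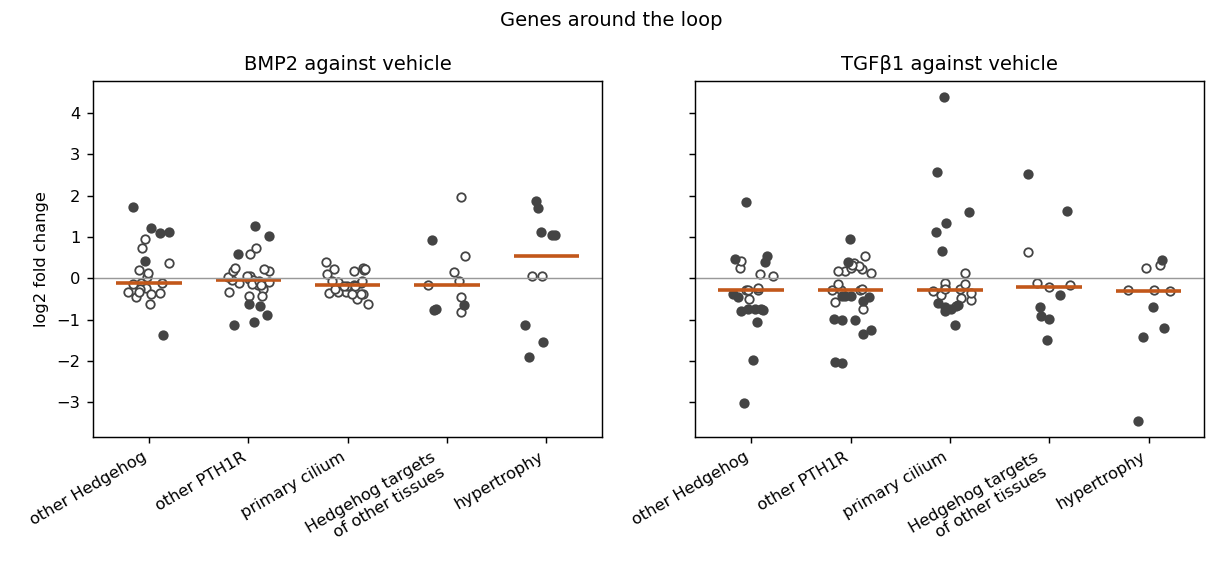
Log2 fold changes (vertical axis) of tested genes in the 5 lists, for BMP2 against vehicle and TGFβ1 against vehicle; points are genes, filled where the adjusted p was under 0.05, with sideways scatter only for legibility, and bars are list medians. The cilium list has 0 filled points with BMP2, and the hypertrophy list has its median at 0.55 with BMP2 and −0.30 with TGFβ1.

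By Pearson's r of log2 CPM over the 7 libraries, the genes most like Ihh, among 9853 whose log2 CPM averaged 2 or more, were Bag3 (0.9997), Slc6a9, Unc5b, Nebl and Smad6 (0.9956). Their group means lay closer together than those of Ihh: Bag3 averaged 73.1 CPM with BMP2, 35 CPM with TGFβ1 and 49 CPM with vehicle, and Smad6, which encodes an inhibitor of BMP signalling, averaged 59.9 CPM with BMP2, 13.8 CPM with TGFβ1 and 25.5 CPM with vehicle. Most like Ptch1 were Hey1 (0.9985), Slc8a3, Nebl, Unc5b and Uba3 (0.9959), and most like Pthlh were Angptl6 (0.9935), Dguok, Naca, Araf and Sf3b2 (0.9916). The genes like Pthlh shared with it a higher level in TGFβ1 replicate 1 than in replicate 3: Naca had 147 and 75.3 CPM there. The libraries form 3 treatment groups, so high values of r are common, and 347, 409 and 447 genes exceeded 0.95 for Ihh, Ptch1 and Pthlh in turn.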

How the data were processed

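The deposited table gives a gene length and, for each of the 7 libraries, the authors' read count of every gene; these counts are whole numbers with differing totals and were used as raw counts. The build is mm10, per the submitters' processing notes, which name STAR 2.4.2a, cutadapt, featureCounts, Subread and DESeq2 without saying what each did. The annotation and strand setting were not given in the sources used here.

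Tests used edgeR 4.0.16 (R 4.3.3): filterByExpr, TMM scaling and 1 quasi-likelihood fit over all 7 libraries with group as the only term (4 residual degrees of freedom, common biological coefficient of variation 0.133), 2-sided, with Benjamini-Hochberg adjustment over 13367 genes. RPKM were computed from TMM-scaled CPM and the deposited length. Log2 CPM used a prior count of 1, and the ligand ratio a pseudocount of 0.5. Intervals for fold changes are at 95%. The scripts were tested on simulated data.

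The alternatives were DESeq2 1.42.0, its size factors in edgeR, no filter, only the compared libraries, the replicate number as a block, each library left out, and an offset in each library taken from lowess fits of log2 CPM, first to transcript length (span 0.15), then to GC content (span 0.3), over 3 iterations, with GENCODE M21 principal transcripts for 13109 tested genes.

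The 9 genes and the lists were chosen with earlier results of these data known. The text names all 9, the list genes with the smallest p (up to 4 per list and comparison), of which a part is printed, and the 5 genes most like Ihh, Pthlh and Ptch1. The rule was extended to the hypertrophy list, and untested list genes were named, after their values were seen. The result for 1 list gene is not reported here.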

Additional observations from a re-analysis of the deposited data

How the results depend on the processing

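Of 351 values of a gene under an alternative (9 genes, 3 comparisons, 13 alternatives), 324 kept their direction and their side of the threshold, 20 kept the direction and no longer passed, 5 kept it and newly passed, and 2 changed sign. Both sign changes were of Pth1r with TGFβ1, which had not passed: −0.19 with the length offset and −0.09 without vehicle replicate 1, within −0.09 to 0.20 over all libraries left out. Ihh and Ptch1 kept their calls in all 3 comparisons under all 13 alternatives. The count of 8 genes called with TGFβ1, beside 7517 of all 13367 tested genes, was 5 with the length offset, beside 6544. It was 7 or 8 with a BMP2 library left out, beside 7222 to 7894 of all genes. It was lower than 8 with a TGFβ1 or vehicle library left out. The count of 4 genes called with BMP2 was lower without vehicle replicate 1. Over all genes, the 1535 calls for BMP2 against vehicle were 771 with the replicate block and 557 to 1698 with a library left out, with 981 without BMP2 replicate 3, 671 without vehicle replicate 1 and 557 without vehicle replicate 2; the cause was not tested. The signed difference in the log2 ratio of Ihh to Pthlh was −5.78 to −3.97 for TGFβ1 against vehicle and 8.2 to 10.01 for BMP2 against TGFβ1 with a library left out.

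The replicate numbers were not shown to pair the libraries: deviations of same-numbered libraries from their group means correlated at −0.139 to −0.001 across genes. With the replicate block 3 of the 9 genes passed for BMP2 against vehicle, beside 771 of all 13367 tested genes. For TGFβ1 against vehicle 7 passed, beside 6086 of all tested genes. For BMP2 against TGFβ1 7 passed with the block. The 8206 of all tested genes called in this comparison are from the fit without the block, so they are not a like count for these 7. With the block Gli2 was −0.44 with TGFβ1 and −0.75 with BMP2, neither past the threshold.

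Depth limits Ihh with TGFβ1 (2 and 4 counts) and Pthlh, Gli1 and Hhip, which had 98 counts or fewer in every library. The length difference and TGFβ1 cannot be told apart, since the same libraries carry both.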
